A study of Mus musculus with 17 samples.

Results

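The little-studied genes Astn2, Lctl, Luzp2, Brinp2, Gja3 and Sobp were followed through the glomeruli of diabetic mice given atrasentan, of diabetic mice given saline and of lean mice. They are 6 of the 53379 genes in the deposited count table. They were chosen by their measured values, as genes outside well-known families with large falls in ob/ob mice against wild type, and the choice set no numeric cut-off. Differences from wild type are therefore given for these genes as a description, with no test. Tests are given for what the choice did not use directly. These are atrasentan against saline and the relation to podocyte RNA between mice of the same group. The saline libraries entered both the choice and the first of these. The atrasentan libraries can have done so too, since the choice named ob/ob mice of no set treatment. Falls against wild type ranked 51 with atrasentan and 602 with saline for Lctl, and 2502 and 76 for Sobp. In the same order they ranked 567 and 16 for Brinp2, 631 and 54 for Gja3, 33 and 67 for Luzp2, and 95 and 93 for Astn2. For all 6 genes the tests of atrasentan against saline are therefore not independent of the choice.

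Cortex enriched for glomeruli from 17 BTBR mice was profiled by poly(A) RNA sequencing, each library taken as 1 mouse. The first group held 7 BTBR ob/ob mice (genotype label "BTBR ob"; line BTBR.V(B6)-Lepob/WiscJ) whose drinking water carried atrasentan, which blocks the endothelin A receptor, from 18 to 24 weeks of age (5 mg/kg each day). The second held 5 ob/ob mice (label "ob/ob-d30") given saline for the same 6 weeks, and the third 5 wild type BTBR mice (label "WT-d30") killed at the same age. The ob mutation removes leptin from the whole animal and makes BTBR mice obese and diabetic, and no group of lean mice received the drug. No source used here explains "d30".

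The glomerulus is the filter of the kidney, and podocytes are the epithelial cells that wrap its capillaries and close the filter with their foot processes. Podocyte injury and loss are known features of diabetic kidney disease. None of the 6 genes is a usual podocyte marker. Astn2 encodes astrotactin 2, a membrane protein known in mouse for its part in the migration of neurons along glial fibres. Brinp2 encodes a neural protein of the BRINP family, which shares a perforin-like domain with the astrotactins. Gja3 encodes connexin 46, a gap junction protein of lens fibre cells whose human mutations cause cataract. Lctl encodes lactase-like, a klotho-family glycosidase-like membrane protein known from the mouse eye. Sobp encodes a nuclear zinc finger protein that is needed for the development of the mouse cochlea, and Luzp2 encodes a leucine zipper protein found mainly in brain, of little known function.

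Gene reads per library ran from 29161833 to 52528747. The 6 genes were low in the table: a gene had between 5 and 1177 reads in a library, 2 of the 102 values were under 10 reads and none was 0. All 6 passed the low-count filter. The preparations differed in tubule content. The mean log2 CPM (counts scaled to library size) of 22 proximal tubule genes was between 3.43 and 6.52 in atrasentan libraries, between 6.55 and 8.82 in saline libraries and between 5.88 and 6.90 in wild type libraries, so the atrasentan and saline groups did not overlap. Saline libraries 1 and 3 were highest, at 8.82 and 8.77. Macrophage genes were higher with atrasentan, with a mean log2 CPM of 4.40 to 6.33, against 3.28 to 3.92 with saline and 2.87 to 3.67 in wild type. Atrasentan libraries also had fewer detected genes, 21396 to 23081, against 24335 to 25313 with saline and 23901 to 24877 in wild type. Reads outside genes made up 3.17% to 5.65% of an atrasentan library, against 5.95% to 8.17% of a saline and 6.26% to 8.58% of a wild type library, so atrasentan lay apart here too. The library numbers in the labels follow the groups, and what they number is not stated. The part of macrophage content, detected genes and reads outside genes in the results was not tested.

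The podocyte list of 26 genes had a mean log2 CPM of 5.54 to 6.93 with atrasentan, against 6.75 to 7.72 with saline and 7.70 to 8.39 in wild type. Nphs1, which encodes the slit diaphragm protein nephrin, had 44.3 ± 15.1 CPM with atrasentan, against 81.5 ± 25.8 CPM with saline and 170 ± 30.8 CPM in wild type (SD, n = 7, 5 and 5). In bulk tissue, fewer cells of a type and less RNA per cell cannot be told apart. Per kilobase of exon, the wild type levels of the 6 genes ran from 3.21 ± 1.02 CPM for Gja3, 3.14 ± 0.91 for Lctl and 2.72 ± 1.15 for Luzp2 to 2.01 ± 0.41 for Astn2, 0.820 ± 0.278 for Brinp2 and 0.713 ± 0.165 for Sobp (SD, n = 5). Only the step between Astn2 and Brinp2 separated neighbours in this order without overlapping libraries. Gja3 stood above 49.8% of 17748 genes on this scale and Sobp above 26.4%, while Nphs1 had 25.6 CPM per kilobase.

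Astn2, Lctl and Luzp2 were the genes of the 6 with called slopes on podocyte RNA and called falls with atrasentan against saline (both given further on), and their start regions are shown for that reason. The windows span 250 bases before and 50 after the RefSeq start (GRCm38.p6), with capitals marking matches to 5 motifs searched on both strands: GCGTGGGNG (EGR/WT1-like), TAATTA (LMX1B-like), TGCTGAC (MAF-like), CAGCTG (an E-box bound by TCF21) and CACGTG (clock E-box).
Astn2 chr4:66404434-66404733 minus strand: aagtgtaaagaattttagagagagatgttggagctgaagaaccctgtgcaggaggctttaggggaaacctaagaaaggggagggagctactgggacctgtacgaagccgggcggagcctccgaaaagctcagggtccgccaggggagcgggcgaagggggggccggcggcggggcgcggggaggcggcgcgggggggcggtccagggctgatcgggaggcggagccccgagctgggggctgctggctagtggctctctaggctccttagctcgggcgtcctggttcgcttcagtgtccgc
Luzp2 chr7:54834995-54835294 plus strand: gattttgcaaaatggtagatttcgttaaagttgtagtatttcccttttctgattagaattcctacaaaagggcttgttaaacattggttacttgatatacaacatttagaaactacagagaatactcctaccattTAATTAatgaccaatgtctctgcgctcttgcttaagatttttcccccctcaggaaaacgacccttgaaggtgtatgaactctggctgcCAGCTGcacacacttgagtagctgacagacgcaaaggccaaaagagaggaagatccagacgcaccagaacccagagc
Lctl chr9:64116897-64117196 plus strand: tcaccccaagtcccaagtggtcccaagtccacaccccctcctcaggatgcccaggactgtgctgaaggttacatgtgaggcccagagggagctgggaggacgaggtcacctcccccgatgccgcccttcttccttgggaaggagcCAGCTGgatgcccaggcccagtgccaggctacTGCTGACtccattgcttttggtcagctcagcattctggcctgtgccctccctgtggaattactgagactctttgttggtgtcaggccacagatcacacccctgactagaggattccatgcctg
The Luzp2 window held TAATTA, which is in 5.29% of the 32851 promoters of the table, and CAGCTG, which is in 16.3% of them. The Lctl window held CAGCTG and TGCTGAC, the second in 4.67% of promoters, and the matches in a window did not overlap. The Astn2 window held none of the 5, as did 68.7% of all promoters. Of the other genes, Sobp had 1 CAGCTG after its start, and 1 of 2 Gja3 windows had GCGTGGGNG, which is in 1.90% of promoters. The Luzp2 window ends at base 54835294 of chr7, before the start of the Luzp2 locus given below (54835498). RefSeq and the locus annotation thus place its start differently. A match is a description of letters and not of binding.

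Astn2 lies on the minus strand of chr4:65380803-66404611 and had its highest level in wild type. It had a lowest, median and highest value of 0.481, 1.19 and 2.31 CPM in the 7 atrasentan libraries. Saline libraries 1 to 5 had 3.02, 1.65, 2.33, 3.97 and 4.24 CPM, and wild type libraries 1 to 5 had 11.0, 9.08, 12.9, 9.40 and 7.52 CPM. Both ob/ob groups lay wholly below wild type, and the ob/ob groups overlapped through atrasentan library 1 and saline library 2. Against wild type, log2 fold change was -3.08 ± 0.33 with atrasentan and -1.71 ± 0.35 with saline (SE). With atrasentan Astn2 fell by 1.36 ± 0.32 on the log2 scale against saline, to 1.18 ± 0.62 CPM against 3.04 ± 1.09 CPM (SD, n = 7 and 5; edgeR quasi-likelihood test, adjusted p = 0.00438). The gene Trim32 lies inside Astn2 on the other strand, with 0 exon bases in common.

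Lctl lies on the plus strand of chr9:64117147-64138118. It had a lowest, median and highest value of 0.338, 0.700 and 1.56 CPM with atrasentan. Saline libraries 1 to 5 had 4.52, 2.38, 5.25, 5.13 and 4.89 CPM, and wild type libraries 1 to 5 had 8.66, 9.80, 11.0, 5.54 and 5.95 CPM. The 3 groups of libraries did not overlap in any pair for Lctl. How many of all genes separate in this way was not counted, and the gene was chosen for its fall against wild type. The lowest saline library was its second, and the highest saline value lay close under the lowest wild type value. Log2 fold change against wild type was -3.42 ± 0.36 with atrasentan and -0.88 ± 0.36 with saline. Against saline, Lctl fell by 2.54 ± 0.35 on the log2 scale with atrasentan, the largest change of the 6 in that comparison (adjusted p = 0.000184, edgeR). Lctl shares 254 exon bases with Zwilch on the other strand, a gene with 878 reads over all libraries, and the kit does not mark strand.

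Luzp2 lies on the plus strand of chr7:54835498-55268885. It had a lowest, median and highest value of 0.136, 0.821 and 3.07 CPM with atrasentan. Saline libraries 1 to 5 had 3.02, 2.21, 5.51, 5.08 and 4.94 CPM, and wild type libraries 1 to 5 had 26.1, 14.7, 15.0, 9.83 and 10.8 CPM. Both ob/ob groups lay below wild type, and atrasentan libraries 1 and 4 reached into the saline range. Log2 fold change against wild type was -3.60 ± 0.51 with atrasentan and -1.88 ± 0.54 with saline. Against saline, Luzp2 fell by 1.72 ± 0.50 with atrasentan (adjusted p = 0.0138, edgeR).

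Brinp2 lies on the minus strand of chr1:158245269-158356326. It had a lowest, median and highest value of 0.370, 1.53 and 3.34 CPM with atrasentan. Saline libraries 1 to 5 had 0.867, 0.196, 0.454, 1.83 and 2.29 CPM, and wild type libraries 1 to 5 had 4.01, 6.21, 6.42, 9.67 and 9.64 CPM. Both ob/ob groups lay below wild type and overlapped each other over most of their range. Log2 fold change against wild type was -2.02 ± 0.52 with atrasentan and -2.66 ± 0.60 with saline, and the saline value ranked 16 among the falls of 17766 genes. The difference between atrasentan and saline was 0.65 ± 0.54 on the log2 scale (95% interval -0.41 to 1.70; adjusted p = 0.369, edgeR).

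Gja3 lies on the minus strand of chr14:57034460-57058100. It had a lowest, median and highest value of 1.40, 2.18 and 4.20 CPM with atrasentan. Saline libraries 1 to 5 had 1.52, 2.29, 2.07, 4.09 and 1.72 CPM, and wild type libraries 1 to 5 had 5.96, 9.77, 14.1, 7.94 and 9.70 CPM. The ob/ob groups covered nearly the same range and both lay below wild type. Log2 fold change against wild type was -1.95 ± 0.29 with atrasentan and -2.02 ± 0.32 with saline. The difference between atrasentan and saline was 0.07 ± 0.29 (95% interval -0.50 to 0.64; adjusted p = 0.878, edgeR).

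Sobp lies on the minus strand of chr10:43002500-43174530. It had a lowest, median and highest value of 1.02, 2.15 and 3.48 CPM with atrasentan. Saline libraries 1 to 5 had 0.788, 1.26, 0.994, 1.68 and 0.961 CPM, and wild type libraries 1 to 5 had 3.39, 4.34, 3.51, 5.35 and 3.12 CPM. Saline libraries lay below wild type, while atrasentan library 2 reached into the wild type range. Log2 fold change against wild type was -0.97 ± 0.29 with atrasentan and -1.79 ± 0.33 with saline. Sobp was the one gene of the 6 that rose with atrasentan against saline, by 0.82 ± 0.30 on the log2 scale (adjusted p = 0.0465, edgeR). This call was lost in 20 of 27 alternatives, 12 of them among the 17 that left out 1 library, and in 1 more, the fit with the proximal tubule mean, the value was -0.017, with adjusted p between 0.0214 and 0.992 over all 27.

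**Figure D1:**
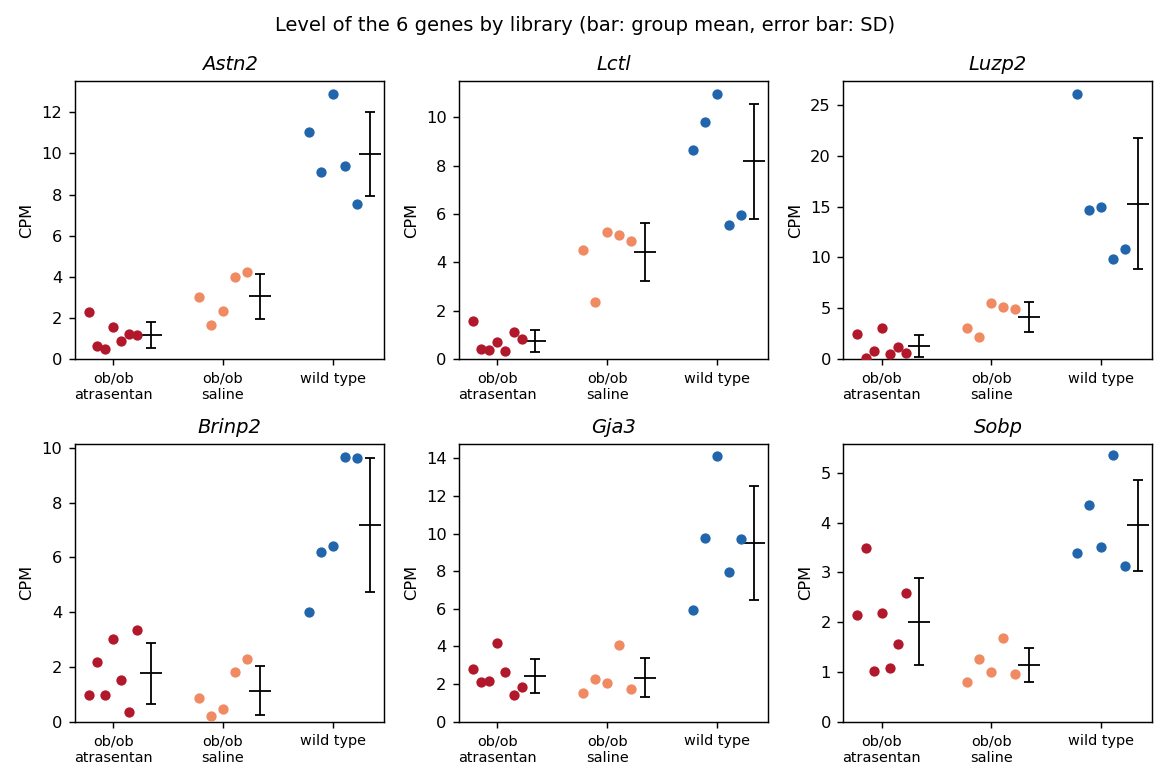
Level of each gene in CPM on a linear axis from 0, one point per library, for ob/ob mice with atrasentan (7 libraries), ob/ob mice with saline (5) and wild type mice (5); the horizontal mark and error bar are the group mean and SD. Astn2, Lctl and Luzp2 step down again with atrasentan below saline, while Brinp2, Gja3 and Sobp do not.

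Between atrasentan and saline, 4 of the 6 genes were called, 3 lower and 1 higher. Of all 17766 genes tested, 18.5% were lower and 15.3% higher, so a large share of the transcriptome differed. In the podocyte list 13 of 26 fell (median -0.86) and in the proximal tubule list 20 of 22 fell (median -3.02), beside a median of -0.01 over all genes. In the same comparison 14 of 20 glomerular endothelium genes (median 0.45) and 10 of 16 mesangium genes (median 0.69) were higher with atrasentan, and 6 of 12 parietal epithelium genes were lower and 1 higher (median -0.90); their part in the results was not tested. With the proximal tubule mean in the fit none of the 6 was called and 24 genes were called in all. Lctl then had -2.18 ± 0.62 (adjusted p = 0.116, edgeR), Astn2 -1.44 ± 0.60 (adjusted p = 0.268) and Luzp2 -1.75 ± 0.95 (adjusted p = 0.401). For Lctl, Astn2 and Luzp2 the values lay near those without that term, with wider errors. Brinp2, Gja3 and Sobp turned from above 0 to -1.31 ± 0.99, -0.75 ± 0.49 and -0.017 ± 0.50. The part of tubule content in these differences cannot be told apart from treatment, since the groups do not overlap in it. Without saline libraries 1 and 3, Lctl (-2.44, adjusted p = 0.00301) and Astn2 (-1.47, adjusted p = 0.0205) were called, and Luzp2 had -1.69 with adjusted p = 0.0634. Over all 27 alternatives adjusted p ran from 4.18e-11 to 0.116 for Lctl, from 0.000293 to 0.268 for Astn2 and from 0.00256 to 0.401 for Luzp2.

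Against the podocyte genes, the 6 genes differed in size of change. In the saline and wild type comparison the podocyte list had log2 fold changes of -1.38 to -0.31 with a median of -0.81, and 10 of 26 were lower and none higher, beside 1.91% lower and 3.21% higher of all genes. In all 910 genes were called here, 54 without saline libraries 1 and 3. With 1 library left out, 226 were called without saline library 1, 216 without saline 3, 1523 without saline 4, 594 without saline 5, and 331, 319, 280, 543 and 220 without wild type libraries 1 to 5. The values of Brinp2, Gja3, Luzp2, Sobp and Astn2 lay below those of all 26 podocyte genes, and Lctl lay among them, above 12. In the atrasentan and wild type comparison the list ran from -2.95 to -0.10, median -1.76, and 24 of 26 were lower, beside 14.5% lower and 14.7% higher of all genes. There Luzp2, Lctl and Astn2 lay below all 26. These comparisons chose the genes, so the position of the 6 is a description. The comparisons also share wild type or saline libraries.

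**Figure D2:**
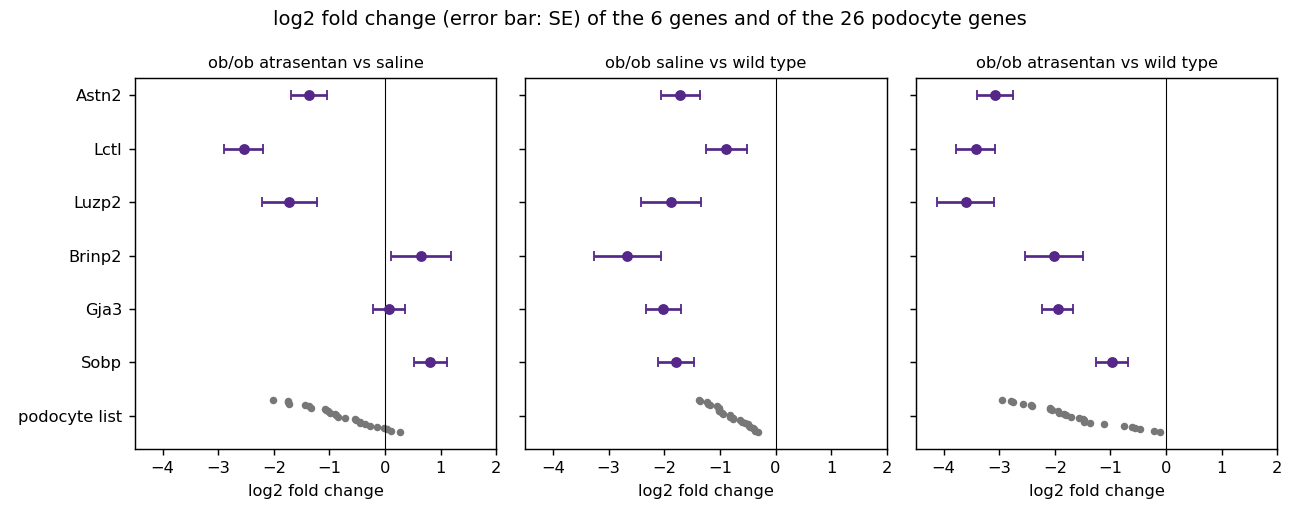
Log2 fold change (x axis) of the 6 genes with SE bars, and of each of 26 podocyte genes as grey points, in the 3 comparisons. The 3 upper genes are the lowest values in the atrasentan and wild type panel, and 5 of the 6 lie left of every podocyte gene in the saline and wild type panel.

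Whether a gene followed podocyte RNA between mice of the same group was tested as a slope, the change in log2 level per log2 unit of the podocyte list mean with the group means taken out. Of the 6 genes, 3 had a positive slope called at adjusted p under 0.05, as did 1.38% of all genes. Astn2 had a slope of 1.22 ± 0.18 (SE; adjusted p = 0.000832, edgeR), Luzp2 of 1.77 ± 0.36 (adjusted p = 0.0127) and Lctl of 1.12 ± 0.26 (adjusted p = 0.0371). The podocyte genes themselves, which make up the mean, had a median slope of 0.99, and 22 of 26 were called. Gja3 had a slope of 0.49 ± 0.26 (95% interval -0.02 to 1.00; adjusted p = 0.346), Brinp2 of 0.41 ± 0.56 (-0.69 to 1.51; adjusted p = 0.743) and Sobp of 0.04 ± 0.29 (-0.53 to 0.62; adjusted p = 0.955). Slopes of the 2 sets of 3 genes were not tested against each other. The Lctl call was lost in 14 of 27 alternatives, 8 of them among the 17 that left out 1 library (slope 0.94, adjusted p = 0.194 without atrasentan library 1). The Luzp2 call was lost in 3 of 26 alternatives. Among these were the fit without atrasentan library 2 (slope 1.48, adjusted p = 0.0548, edgeR) and limma-voom (slope 1.39, adjusted p = 0.067). Within saline and wild type libraries alone, and within atrasentan libraries alone, Astn2 had slopes of 1.06 ± 0.26 (adjusted p = 0.254) and 1.32 ± 0.29 (adjusted p = 0.104), and Lctl of 0.70 ± 0.36 (adjusted p = 0.999) and 1.40 ± 0.36 (adjusted p = 0.125). Luzp2 had 0.99 ± 0.42 (adjusted p = 0.999, edgeR) in saline and wild type libraries and could not be fitted in atrasentan libraries alone, where it did not pass the low-count filter. In saline and wild type libraries alone Brinp2 had 1.25 ± 0.80, Gja3 0.74 ± 0.40 and Sobp 0.28 ± 0.38. Brinp2 thus lay above Astn2 there and Gja3 above Lctl, so the 2 sets of 3 genes did not separate. In atrasentan libraries alone Brinp2 had 0.04 ± 0.68, Gja3 0.37 ± 0.35 and Sobp -0.027 ± 0.45. No slope of the 6 was called within either set of libraries.

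**Figure D3:**
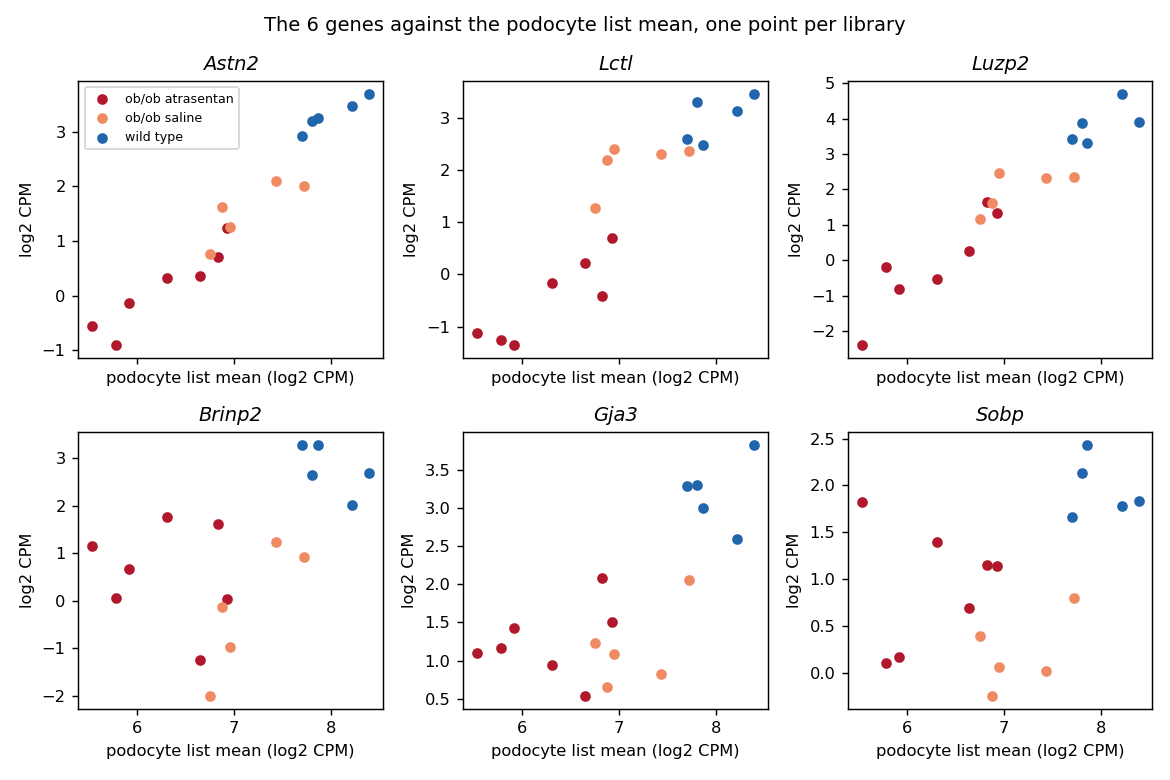
Log2 CPM of each gene (y axis) against the mean log2 CPM of 26 podocyte genes (x axis), one point per library coloured by group. Over the 17 libraries Pearson r with the podocyte mean was 0.97 for Astn2, 0.96 for Luzp2 and 0.92 for Lctl. It was 0.73 for Gja3, 0.52 for Brinp2 and 0.44 for Sobp. With group means subtracted, r was 0.91 for Astn2, 0.81 for Luzp2 and 0.78 for Lctl, against 0.35 for Gja3, 0.14 for Brinp2 and 0.15 for Sobp. These r values are a description.

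Slopes on the mean of 22 proximal tubule genes were called for none of the 6, where 8.89% of all genes had a called positive and 0.371% a called negative slope. Brinp2 had a slope of -0.61 ± 0.27 (adjusted p = 0.215), which reached -0.77 with adjusted p = 0.0405 without saline library 2. Gja3 had -0.30 ± 0.15 and Sobp -0.29 ± 0.14 (adjusted p = 0.299 and 0.293), and Luzp2, Astn2 and Lctl lay between -0.03 and 0.12.

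**Figure D4:**
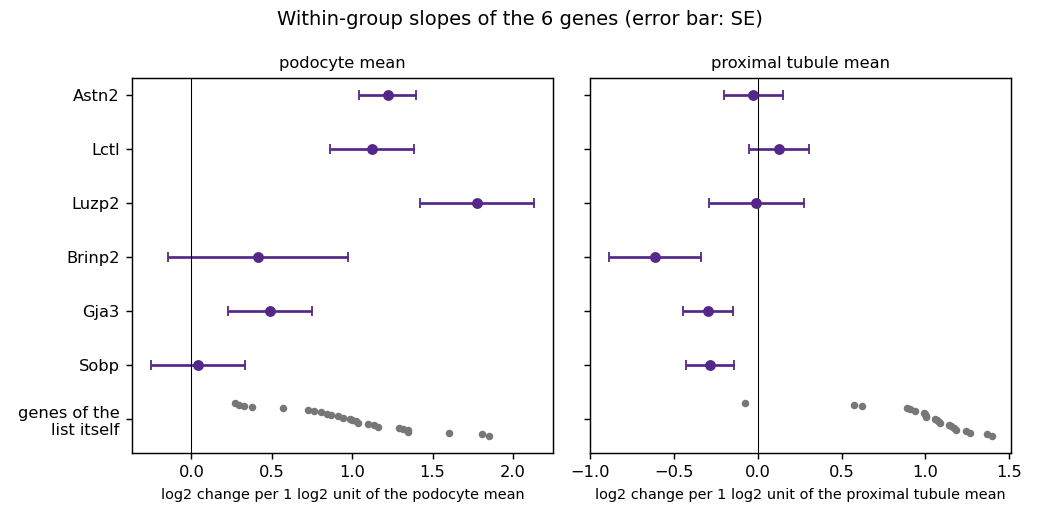
Slope of each gene with SE on the podocyte mean (left) and the proximal tubule mean (right), with the genes of each list as grey points. On the left Astn2, Lctl and Luzp2 lie among the podocyte genes, and Brinp2 and Gja3 lie at the low end of them, each above 4 of 26. Sobp lies below all 26 there. All 6 genes lie near or below 0 on the right, apart from most genes of the list.

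Set relative to the podocyte mean of the same library, the 6 genes gave different pictures. Astn2 lay at -6.13 ± 0.30 on the log2 scale with atrasentan, against -5.60 ± 0.30 with saline and -4.69 ± 0.07 in wild type (SD, n = 7, 5 and 5), the last value varying least between mice. Lctl lay at -6.76 ± 0.42 with atrasentan, against -5.03 ± 0.41 with saline and -5.00 ± 0.32 in wild type, so the saline and wild type values were within their spread. Sobp lay at -5.35 ± 0.79 with atrasentan, against -6.94 ± 0.38 with saline and -6.02 ± 0.48 in wild type. Sobp itself was lower with atrasentan than in wild type (log2 fold change -0.97), while the podocyte mean subtracted from it was 6.28 against 7.99. In the order atrasentan, saline and wild type, Luzp2 lay at -6.38 ± 0.91, -5.16 ± 0.42 and -4.14 ± 0.43. Brinp2 lay at -5.70 ± 1.27, -7.34 ± 1.01 and -5.21 ± 0.75, and Gja3 at -5.03 ± 0.62, -5.98 ± 0.44 and -4.79 ± 0.50. With the podocyte mean as a term in the fit, the atrasentan and saline difference was -1.71 for Lctl (adjusted p = 0.00292), -0.39 for Astn2 (adjusted p = 0.223) and -0.55 for Luzp2 (adjusted p = 0.357). In that fit the saline and wild type values, again as a description, were -2.42 for Brinp2, -1.76 for Sobp, -1.63 for Gja3, -0.72 for Astn2, -0.35 for Luzp2 and 0.08 for Lctl.

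The genes most alike to each of the 6 over the 17 libraries, by Pearson r of log2 CPM, are a description, since libraries share group differences and scaling. Astn2 was closest to Lmx1b (r = 0.99), a podocyte transcription factor and member of the podocyte list, then Ephb1 and Clic3 (0.99 and 0.98). Lctl was closest to Mgat4a, Prr5 and Morn4 (0.97, 0.97 and 0.96), and Luzp2 to 2810433D01Rik, Pak1 and Car13 (0.97, 0.97 and 0.96). Brinp2 was closest to Ptger2 (0.94), which encodes the prostaglandin E receptor EP2, then Gm11346 and Nrep (0.89 each). Gja3 was closest to Hist2h2be, Gm16701 and Hoxc8 (0.92, 0.91 and 0.91), and Sobp to Rasgef1a, Gdf11 and Col1a2 (0.90, 0.89 and 0.85). With group means subtracted, Brinp2 kept Ptger2 first (0.89), then Gm33370 and Plxdc1 (0.77 each), and Luzp2 kept 2810433D01Rik (0.95), then Cd99l2 and Acpp (0.93 and 0.89). Astn2 then had Nell2, Fgfbp1 and Clic3 (0.96, 0.95 and 0.95), Lctl had Wnt5b, Mtrr and Scx (0.94, 0.90 and 0.89), Sobp had Prr33, Asic3 and Gm44193 (0.93, 0.90 and 0.83), and Gja3 had Srp54c, Hoxc8 and Hist1h2be (0.79, 0.77 and 0.77).

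Relatives of the 6 genes did not share one pattern. Of the BRINP and astrotactin family, Brinp1 and Brinp3 had 18 and 19 reads in all and did not pass the filter. Astn1, which acts with astrotactin 2 in mouse neurons, had 7.87 ± 4.13 CPM with atrasentan, against 6.14 ± 2.59 with saline and 14.1 ± 4.32 in wild type, with log2 fold changes of -0.84 ± 0.37 (adjusted p = 0.0991) and -1.19 ± 0.41 (adjusted p = 0.0939) against wild type. In the neuron and nerve list 5 of 13 genes passed the filter. Its mean log2 CPM was -1.12 to 0.84 with atrasentan, against -0.10 to 0.83 with saline and -0.35 to -0.01 in wild type, so it was not lower in saline than in wild type.

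Of 22 other connexins and pannexins, 8 passed the filter. With atrasentan against saline, 4 rose and 2 fell: the vascular connexins Gja4 (0.36 ± 0.13, adjusted p = 0.0361), Gja5 (0.84 ± 0.20) and Gjc1 (0.64 ± 0.10) and the channel Panx1 (0.98 ± 0.18) rose, and the epithelial connexins Gjb1 (-2.86 ± 0.51) and Gjb2 (-3.41 ± 0.47) fell. The Gja4 call was lost in 9 of 27 alternatives. Gjb1 and Gjb2 had positive proximal tubule slopes of 1.05 ± 0.08 and 0.99 ± 0.10. In saline against wild type only Gjb2 was called (1.95 ± 0.50, adjusted p = 0.0352, lost in 13 of 27 alternatives). Of 20 lens genes 6 passed, and Cryab, a small heat shock protein of lens and other tissues, was lower in saline than in wild type (97.7 ± 20.9 CPM against 177 ± 52.9 CPM; log2 fold change -0.86 ± 0.19, adjusted p = 0.0201, lost in 7 of 27 alternatives).

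Among 8 genes of the retinal determination network that passed, relatives or partners of the proteins Sobp binds in eye and ear development, none was called in saline against wild type. Eya4 fell with atrasentan against saline (-1.58 ± 0.37, adjusted p = 0.00403), to 0.513 ± 0.252 CPM against 1.54 ± 0.25 CPM. Against wild type, Eya4, Six5 and Dach1, which is also on the podocyte list, were lower with atrasentan (-2.14, -0.42 and -0.48), as was Eya1, at 0 to 0.320 CPM with atrasentan, against 0.766 to 2.40 CPM in wild type (adjusted p = 0.000436, edgeR). Eya1 had 0.0780 to 0.409 CPM with saline, also wholly below wild type (log2 fold change -2.72 ± 0.80, adjusted p = 0.0538, edgeR). The share of all genes that separate so was not counted. Luzp1 was called in none of the 3 comparisons (adjusted p between 0.0750 and 0.512), and Luzp4 had 0 reads. Of 5 klotho and FGF receptor genes that passed beside Lctl, Kl (-2.59 ± 0.52), Fgfr4 (-2.59 ± 0.43) and Fgfr1 (-0.84 ± 0.21) fell and Fgfr2 (0.66 ± 0.21) rose with atrasentan against saline. The Fgfr2 call was lost in 8 of 27 alternatives. Kl encodes klotho of the kidney tubule, and it and Fgfr4 had proximal tubule slopes of 0.88 ± 0.16 and 0.87 ± 0.11. Fgfr1 and Fgfr2 had podocyte slopes of 0.78 ± 0.12 and 0.74 ± 0.12 (adjusted p = 0.00116 and 0.00214, edgeR), and in saline against wild type Fgfr3 was called higher (1.01 ± 0.28, adjusted p = 0.0433), a call lost in 16 of 27 alternatives, with a lowest value of 0.63 without saline library 2.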

How the data were processed

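Raw read counts per gene were deposited by the authors, as were normalized values on a log2 scale, used for 1 alternative only, whose transform no label or header states. STAR, HTSeq, DESeq2, edgeR, limma and GRCm38 are named, without versions or roles, in the submitters' processing notes. The kit does not mark strand, per the labels' protocols. HTSeq lines that name no gene were kept out of library sizes: reads with several alignments were 23.4% to 31.8% of a library and reads outside genes 3.17% to 8.58%. Symbols came from GENCODE M21, with 53274 of 53379 gene IDs given one. The members and all gene lists were chosen with earlier results of these data known.

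All 17 libraries were fitted together with edgeR 4.0.16 (R 4.3.3; TMM scaling, filterByExpr by group, quasi-likelihood F test) over 17766 genes, with Benjamini-Hochberg adjustment over all of them and calls at adjusted p under 0.05. The biological coefficient of variation was 0.312. CPM used TMM library sizes, and log2 CPM a prior count of 2. SE is the log2 fold change over the root of F. Slopes are the coefficient of a centred list mean added to the group terms. The procedure was run on simulated counts with the same spread for every gene and no difference in tubule content between groups. That run checked the code and not the results here. Alternatives used limma 3.58.1 and DESeq2 1.42.0, other scalings, filters, covariates and libraries; 2 of them, the slopes within part of the libraries, were chosen after seeing the data. Named genes were the 6 members, the called or 2 highest genes of each family list, 5 core podocyte genes and the 3 genes most alike to each member; some genes of the rule are not reported here. Of 41 pairs of libraries in a group, none was a repeat (chi-square per degree of freedom at least 25.2). No protein sequences were used here.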

Additional observations from a re-analysis of the deposited data

Results flagged for a closer look

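Over the 18 groups of libraries examined (6 genes in 3 groups), 1 library stood apart from the rest of its group. Lctl in saline library 2 had 2.38 CPM, against 4.52 to 5.25 CPM in the other saline libraries. Chance alone sets about 1 in 20 groups apart in this way.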

How the results depend on the processing

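Of 785 alternative values for the 6 genes, 702 counted as the same. For atrasentan against saline and the slopes, this meant the same direction and side of the threshold. Against wild type, where the 6 genes were not tested, it meant the same direction and a shift smaller than the SD within groups. No paired analysis was possible because the replicate numbers here only name libraries and pair nothing. Calls in saline against wild type numbered 550 with limma-voom, 2000 with DESeq2, 1430 with the 2 groups alone, 54 without saline libraries 1 and 3, 85 with the podocyte mean and 52 with the proximal tubule mean as covariate, and 216 to 1523 when 1 library was left out, beside 910. Calls in atrasentan against saline numbered 2577 without saline libraries 1 and 3 and 24 with the proximal tubule mean, beside 6001, and 4361 to 6338 with 1 library left out. Of the 6 genes, 2 were called without these libraries, 1 with the podocyte mean and 0 with the tubule mean, and 3 to 4 with 1 library left out. In atrasentan against wild type 1516 were called with the podocyte mean, beside 5190. Podocyte slopes called numbered 704 with DESeq2, 437 with both means, 60 in saline and wild type alone, 64 in atrasentan alone and 174 to 492 with 1 library left out, beside 278; of the 6 genes, 1 was called with limma-voom, 0 in saline and wild type alone, 0 of the 5 fitted in atrasentan alone and 1 to 3 with 1 library left out. Proximal tubule slopes called numbered 582 without saline libraries 1 and 3 and 1047 to 1892 with 1 library left out, beside 1646, with 0 to 1 of the 6 genes. Cause was not tested.

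Direction turned for some values. In atrasentan against saline Gja3 was -0.14 without saline libraries 1 and 3, -0.75 with the tubule mean and -0.11 to 0.37 with 1 library left out; the tubule mean gave -1.31 for Brinp2, -0.017 for Sobp, 0.19 for Gjb1 and 0.034 for Fgfr4. With the podocyte mean Lctl was 0.083 in saline against wild type, and Podxl was 0.22, Dach1 0.088 and Hsf4 0.10 in atrasentan against wild type. The podocyte slope of Brinp2 was -0.11 with limma-voom, and that of Sobp -0.0043 without saline libraries 1 and 3, -0.027 in atrasentan alone and -0.13 to 0.57 with 1 library left out. The tubule slope of Astn2 was 0.024 without saline libraries 1 and 3 and -0.098 to 0.061 with 1 library left out, and that of Luzp2 -0.14 to 0.10. Levels under 10 reads, Luzp2 in atrasentan library 2 and Brinp2 in saline library 2, carry wide counting error.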
